A study of Homo sapiens with 6 samples.

Results

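Kinesins are motor proteins that use ATP to move along or reshape microtubules, and centromere proteins build the kinetochore, the structure by which microtubules hold each chromosome. Genes of both kinds were taken from the deposited table by symbol: every KIF-named gene with a number in its symbol, every CENP-named gene, the NDC80 complex genes NDC80, NUF2, SPC24 and SPC25, and the SKA genes. This gave 66 genes of the 15024 in the table, of which 36 were KIF-named. By known roles they were divided into 13 mitotic kinesins, 14 transport kinesins, 9 other kinesins, 26 centromere and kinetochore genes and 4 other CENP-named genes.

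The cells were MDA-MB-231, an established human cell line from a triple-negative breast cancer. All 6 libraries came from cells with a non-targeting guide (sgNT), which serves as a wild-type control, grown with 10 µM forskolin for 14 days. Forskolin switches on adenylyl cyclase, the enzyme that makes cyclic AMP. Sorting gave 3 CD44+CD104high libraries (CD104high), described in the design text as a hybrid epithelial-mesenchymal state, and 3 CD44+CD104-/low libraries (CD104low), described as mesenchymal. CD104 is integrin beta 4, the product of ITGB4. The question was in which genes the 2 sorted populations differ, and no untreated library was analysed here.

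Libraries held 52088604 to 56958065 reads in genes, recovered from the normalised values. ITGB4, the gene of the sort marker, had normalised read counts of 15970 to 19493 in CD104high and 2317 to 3802 in CD104low libraries, so the labels fitted the sort. Of the markers checked for the line, CD44, VIM, KRT7, KRT8, KRT18, KRT19, EPCAM and ERBB2 were present in all 6 libraries. CDH1, ESR1 and PGR were not analysed here. KRT7 and KRT19 were higher in CD104high, by 0.38 and 0.41 on the log2 scale (limma adjusted p = 0.0264 and 0.00194). ERBB2 passed as higher only with the replicate block, and the others present did not pass. Of markers of blood, endothelium and fibroblasts, PECAM1 and DCN stayed under 10 in every library, and PTPRC, CD3E and CD68 were not analysed here. The fibroblast markers PDGFRB and LUM were measurable, with PDGFRB at 2311 to 3892 in CD104high and 1276 to 3018 in CD104low, and LUM at 162 to 643 in CD104high and 21.7 to 222 in CD104low. Both overlapped between the groups and neither passed limma's test without pairs (adjusted p = 0.128 for PDGFRB and 0.0591 for LUM). Within the numbered pairs both were higher in CD104high in 3 of 3, by 0.62 for PDGFRB and 2.22 for LUM on the log2 scale, and both passed with the replicate number as a block (limma adjusted p = 0.00102 and 0.000413). These markers thus moved with the groups, and their part in the results was not tested.

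In a dividing cell, motors such as KIF11 push spindle poles apart, KIF2C removes tubulin at centromeres, and KIF20A and KIF23 serve the central spindle and cytokinesis. The centromere is marked by the histone H3 variant CENP-A, on which a constitutive network of CENP proteins sits and carries the microtubule-binding NDC80 and SKA complexes. Transport kinesins instead carry vesicles, mitochondria, mRNA and other cargo through the cytoplasm in dividing and resting cells alike. Many genes of the first kind are transcribed mainly in G2 and M phase, through promoter elements known as CHR (cell cycle genes homology region) and CCAAT box.

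Promoter windows of mitotic and transport members are shown to compare these elements between a group that was lower on the whole and members that were higher. No transport kinesin that passed as lower is shown. RefSeq windows on GRCh38.p14, from 250 bases before to 50 bases after the annotated start, matched 54 of the 66 members by symbol. Members without a matched window included the transport kinesins KIFC2, which passed as higher, KIFC3, which passed as lower, and KIF13B. Capitals mark CCAAT, the CHR letters TTTGAA, and the CHR variants written TTCGAA, the form TTTAAA and the form CTTGAA. Each was searched on both strands, and no overlap between matches was removed. TTTGAA and CCAAT were chosen first, and the other CHR letters were added after the windows had been read. The windows of KIF20A (chr5:138178862-138179161, plus strand), KIF2C (chr1:44739587-44739886, plus strand) and KIF22 (chr16:29790501-29790800, plus strand) belong to the 3 mitotic kinesins that passed the test as lower, KIF23 (chr15:69414099-69414398, plus strand) is a mitotic kinesin that did not pass, and CENPA (chr2:26785806-26786105, plus strand) passed as lower. KIF13A (chr6:17987586-17987885, minus strand), KIF3C (chr2:25982448-25982747, minus strand) and KIFAP3 (chr1:170074646-170074945, minus strand) are transport kinesin genes that passed as higher.
KIF20A: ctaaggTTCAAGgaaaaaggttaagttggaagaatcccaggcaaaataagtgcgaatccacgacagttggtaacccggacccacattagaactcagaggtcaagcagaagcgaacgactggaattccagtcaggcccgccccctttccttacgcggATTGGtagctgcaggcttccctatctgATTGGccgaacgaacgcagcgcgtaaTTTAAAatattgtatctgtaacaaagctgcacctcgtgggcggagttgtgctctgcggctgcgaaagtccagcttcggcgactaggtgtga
KIF2C: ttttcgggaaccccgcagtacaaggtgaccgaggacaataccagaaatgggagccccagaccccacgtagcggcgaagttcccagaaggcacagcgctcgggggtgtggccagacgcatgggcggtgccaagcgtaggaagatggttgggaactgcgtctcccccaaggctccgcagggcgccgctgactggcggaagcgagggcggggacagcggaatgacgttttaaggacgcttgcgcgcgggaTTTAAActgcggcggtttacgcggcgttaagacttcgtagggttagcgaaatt
KIF22: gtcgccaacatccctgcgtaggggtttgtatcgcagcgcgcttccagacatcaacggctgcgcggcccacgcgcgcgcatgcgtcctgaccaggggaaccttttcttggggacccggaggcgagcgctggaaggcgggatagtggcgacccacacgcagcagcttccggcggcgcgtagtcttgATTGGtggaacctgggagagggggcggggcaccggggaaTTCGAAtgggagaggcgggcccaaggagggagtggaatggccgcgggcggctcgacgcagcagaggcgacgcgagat
KIF23: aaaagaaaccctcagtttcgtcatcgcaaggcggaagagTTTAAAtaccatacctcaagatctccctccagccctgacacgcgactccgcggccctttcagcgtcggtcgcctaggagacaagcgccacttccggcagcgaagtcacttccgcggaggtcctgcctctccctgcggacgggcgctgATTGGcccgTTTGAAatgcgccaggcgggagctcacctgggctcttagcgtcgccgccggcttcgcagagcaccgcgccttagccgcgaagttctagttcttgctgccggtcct
CENPA: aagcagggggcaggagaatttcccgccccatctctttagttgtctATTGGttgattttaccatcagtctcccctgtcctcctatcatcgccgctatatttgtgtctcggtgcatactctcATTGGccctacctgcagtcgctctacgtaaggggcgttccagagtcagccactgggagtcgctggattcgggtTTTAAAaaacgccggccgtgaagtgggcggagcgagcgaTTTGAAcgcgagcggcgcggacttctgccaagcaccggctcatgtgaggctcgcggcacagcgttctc
KIF13A: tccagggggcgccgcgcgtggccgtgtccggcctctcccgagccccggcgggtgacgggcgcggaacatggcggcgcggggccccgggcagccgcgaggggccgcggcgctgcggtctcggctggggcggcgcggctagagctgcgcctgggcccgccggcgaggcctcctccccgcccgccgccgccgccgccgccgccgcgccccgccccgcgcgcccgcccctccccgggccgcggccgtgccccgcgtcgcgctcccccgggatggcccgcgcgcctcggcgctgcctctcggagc
KIF3C: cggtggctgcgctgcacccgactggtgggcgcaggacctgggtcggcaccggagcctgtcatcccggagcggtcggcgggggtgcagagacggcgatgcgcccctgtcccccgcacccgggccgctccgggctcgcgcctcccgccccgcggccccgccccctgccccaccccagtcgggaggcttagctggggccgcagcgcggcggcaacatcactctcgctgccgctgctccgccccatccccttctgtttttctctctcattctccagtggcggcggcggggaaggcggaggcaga
KIFAP3: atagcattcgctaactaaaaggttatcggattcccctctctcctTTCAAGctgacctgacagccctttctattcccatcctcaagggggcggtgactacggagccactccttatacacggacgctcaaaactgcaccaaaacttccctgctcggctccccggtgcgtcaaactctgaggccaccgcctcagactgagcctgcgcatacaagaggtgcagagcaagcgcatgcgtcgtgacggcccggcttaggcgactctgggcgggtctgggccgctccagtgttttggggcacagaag

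In the KIF23 window CCAAT, read on the other strand, begins 64 bases and TTTGAA 55 bases before the start. In CENPA TTTGAA begins 18 bases before the start, and in KIF22 TTCGAA begins 27 bases before it. The windows of KIF13A and KIF3C hold none of the searched letters, and in KIFAP3 CTTGAA, read on the other strand, begins 206 bases before the start. TTTGAA was found in 10 of 13 mitotic kinesin windows (76.9%), 10 of 23 centromere and kinetochore windows (43.5%) and 1 of 11 transport kinesin windows (9.09%), against 15.4% of all 27305 promoters in the table. CCAAT was found in 11 of 13 mitotic kinesin windows, 12 of 23 centromere and kinetochore windows and 3 of 11 transport kinesin windows, against 35.7% of all promoters. Both stood together in 9 mitotic kinesin windows (69.2%), 5 centromere and kinetochore windows (21.7%) and 1 transport kinesin window (9.09%), against 6.08% of all promoters. That transport kinesin window was of KIF5B, which passed the expression test as lower. The 3 mitotic kinesins without TTTGAA were KIF20A, KIF2C and KIF22, the same 3 that passed the expression test as lower, while the 10 with it did not pass. This split was noticed after both were known, and it was not tested. Centromere and kinetochore genes did not share it: TTTGAA stood in 3 of 5 windows of genes that passed as lower (CENPA, CENPO and SKA3) and in 7 of 18 windows of genes that did not pass. With any of the 4 CHR forms counted, 13 of 13 mitotic kinesin windows held a match, against 32.5% of all promoters. So did 12 of 23 centromere and kinetochore windows and 5 of 11 transport kinesin windows. The added forms were chosen after these windows had been read, so the 13 of 13 is no independent result. TTTAAA begins 41 bases before the start in KIF20A and 3 bases before it in KIF2C. These matches describe letters in the windows and are not binding sites.

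As a group, the genes of division lay slightly lower in CD104high than in CD104low cells, and transport kinesins went in both directions. All 66 genes passed the filter on low values, 10 or more normalised reads in 3 or more of the libraries. Of them, 13 were lower and 4 higher in CD104high at a limma adjusted p under 0.05, against 11.3% lower and 12.1% higher of all 14343 genes tested (23.4% in either direction). Groups did not overlap in 25 members that were lower and 5 that were higher, against 21.3% lower and 19.9% higher of all genes. With the replicate number as a block 20 of 66 members passed, against 32.8% of all genes. Among the 13 mitotic kinesins 3 were lower and 0 higher, and 12 had a log2 fold change below 0, as had 48.8% of all genes. Their median log2 fold change was −0.13, beside 0.01 over all genes. Among the 26 centromere and kinetochore genes 6 were lower and 0 higher, 23 lay below 0 and the median was −0.21. Among the 14 transport kinesins 4 were higher and 2 lower, 7 lay on each side of 0, and the median was −0.01, or 0.01 when values were scaled to the library total.

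The difference was small in each library. The mitotic kinesins summed to normalised read counts of 73896, 75805 and 77812 in CD104high and 83294, 86958 and 86222 in CD104low replicates 1 to 3, without overlap of the groups. Centromere and kinetochore genes summed to 94271, 98697 and 104107 in CD104high against 108810, 108161 and 109083 in CD104low, also without overlap. Within the numbered pairs, 11 of 13 mitotic kinesins and 18 of 26 centromere and kinetochore genes were lower in CD104high in 3 of 3 pairs, as were 30.4% of all genes. The same held for 3 of 14 transport kinesins, and 4 were higher in 3 of 3 pairs, as were 30.9% of all genes. Of 9 general proliferation markers, MKI67 and TOP2A among them, 8 lay below 0, with a median of −0.17, and 2 passed as lower. Within pairs, 7 of them were lower and 1, TOP2A, higher in CD104high in 3 of 3. Whether lower values were particular to genes of mitosis was not tested. In bulk RNA, fewer dividing cells and less mRNA per dividing cell cannot be told apart. The fibroblast markers PDGFRB and LUM were higher in CD104high in the same 3 pairs, and their part in these differences was not tested.

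**Figure D1:**
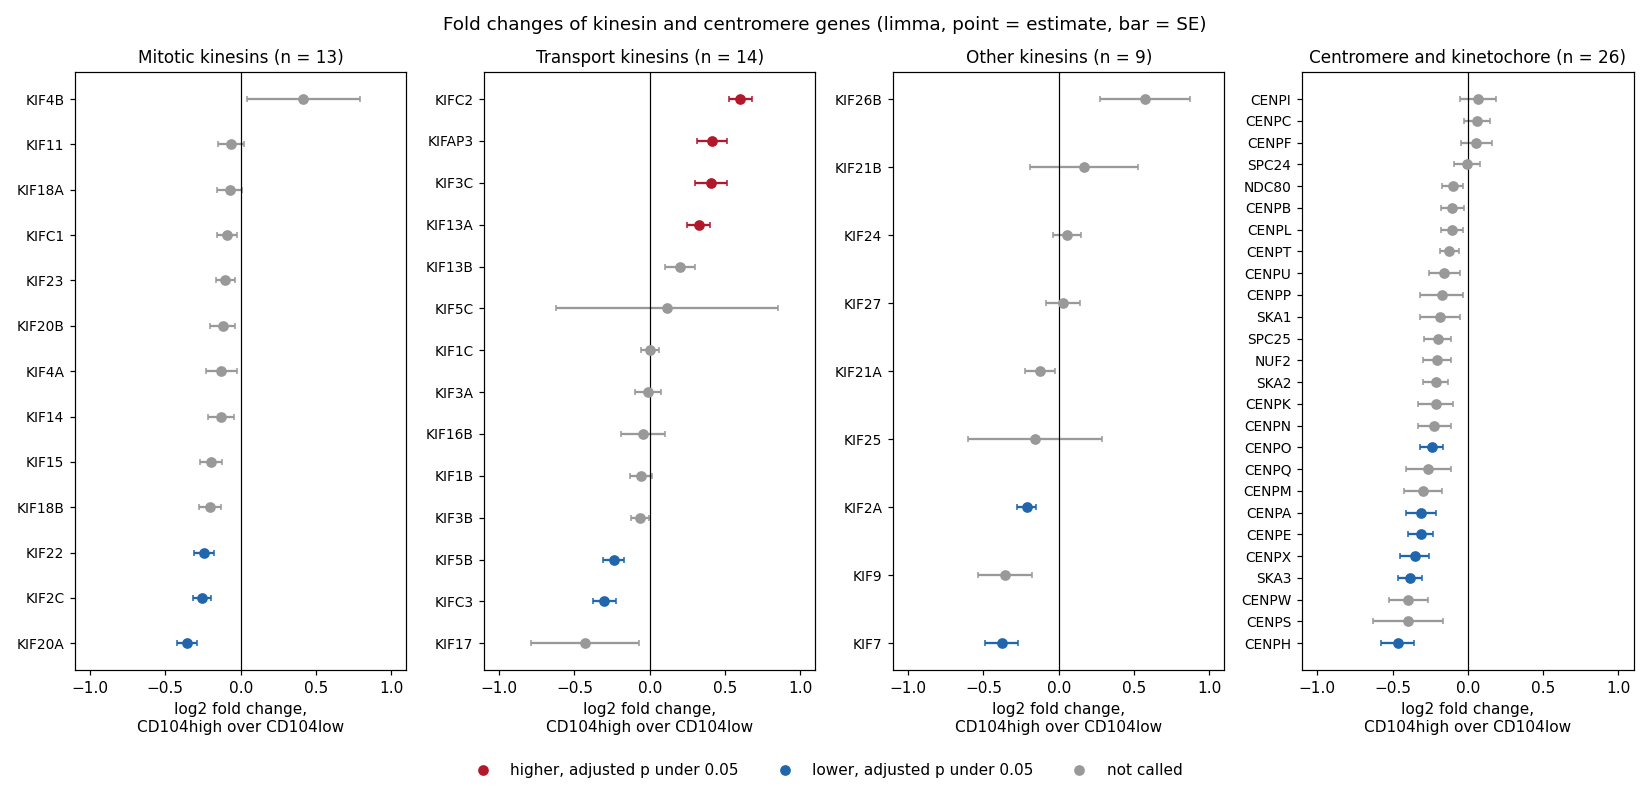
Log2 fold change of CD104high over CD104low for 62 genes in 4 role groups, with the limma estimate as a point and its SE as a bar; colour marks genes that passed the test. All mitotic kinesins except the scarce KIF4B lie left of 0, while the transport kinesins spread from −0.43 to 0.60.

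KIF20A, a motor of the central spindle and cleavage furrow, had the largest fall among mitotic kinesins. Its normalised read counts were 10298, 9857 and 10314 in CD104high, against 13496, 13224 and 12334 in CD104low. All CD104high libraries lay below all CD104low libraries, and the log2 fold change was −0.36 (SE 0.06, adjusted p = 0.00395). KIF20A (ENSG00000112984.12) spans 138178719 to 138187715 on chromosome 5 of GRCh38, plus strand. KIF2C, the microtubule depolymerase MCAK, had 7515, 7621 and 7597 in CD104high and 9326, 8993 and 8849 in CD104low, again without overlap (−0.26 on the log2 scale, SE 0.06, adjusted p = 0.0129). KIF22, a chromokinesin that binds DNA and pushes chromosomes from the poles, had 4905, 4615 and 5079 in CD104high and 5966, 5577 and 5751 in CD104low, a fall of 0.24 on the log2 scale (adjusted p = 0.0257). A locus annotated on the other strand overlaps part of the exons of KIF22. Of these, KIF20A passed in every alternative run with the 0.05 threshold, and KIF2C missed only without both libraries numbered 3 (adjusted p = 0.0508). The call of KIF22 ended without CD104high replicate 1 or 2 (adjusted p = 0.0711 and 0.105), CD104low replicate 1 or 3 (0.0526 and 0.0512), and both libraries numbered 3 (0.055). Without limma's mean-variance trend 6 of the 17 called members passed: KIF20A, KIF2C, SKA3, CENPH, KIFC2 and KIFAP3.

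The other 10 mitotic kinesins did not pass. KIF11, the kinesin-5 that separates spindle poles, had 9912, 11271 and 10954 in CD104high and 10061, 12134 and 11467 in CD104low. The groups overlapped and the log2 fold change was −0.06 (SE 0.08, adjusted p = 0.622). KIF15, which shares the task of KIF11, had −0.20 (SE 0.07, adjusted p = 0.0834) and passed in the fit with the replicate block (adjusted p = 0.0414). KIF18B, which trims astral microtubules, had −0.20 (SE 0.08, adjusted p = 0.0769), and its relative KIF18A, which dampens chromosome movement, −0.07 (SE 0.08, adjusted p = 0.561). The remaining cytokinesis and spindle motors KIF23, KIF14, KIF20B, KIF4A and KIFC1 had log2 fold changes of −0.09 to −0.13, and none passed. KIF4B, an intronless copy of KIF4A, was near the lower limit at 16.5 to 21.8 in CD104high and 11.8 to 17.5 in CD104low. Reads of these near-identical copies may have been divided between them, so the value of KIF4B is uncertain.

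At the centromere itself, CENPA, which encodes the histone variant that marks it, had 1466, 1588 and 1704 in CD104high and 2237, 1848 and 1839 in CD104low. The groups did not overlap, and CENPA fell by 0.31 on the log2 scale (SE 0.10, adjusted p = 0.0477). That call ended without CD104high replicate 1 or 2 (adjusted p = 0.165 and 0.114) and without CD104low replicate 1 or 2 (0.119 and 0.0637), and scaling to the library total gave an adjusted p of 0.0503. CENPB, which binds a short repeat in centromeric DNA, had 11085, 11202 and 11800.4 in CD104high and 13539, 11763 and 11409 in CD104low. Those groups overlapped (−0.10, SE 0.08, adjusted p = 0.363). HJURP, the chaperone that loads CENP-A, did not pass (−0.08, SE 0.06, adjusted p = 0.398), nor did OIP5 of the loading machinery (−0.37, SE 0.17, adjusted p = 0.143).

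The constitutive centromere network links CENP-A chromatin to the outer kinetochore. Of its 15 subunits 3 were lower and 0 higher, beside 11.3% lower and 12.1% higher of all genes. Below 0 lay 13 of them, as did 48.8% of all genes. CENPH had the largest fall, with 787, 790.1 and 902 in CD104high and 1190.5, 1009 and 1233 in CD104low (−0.47 on the log2 scale, SE 0.11, adjusted p = 0.0134). CENPX, a histone-fold subunit, had 2382, 2122 and 2399 in CD104high and 3337, 2711 and 2796 in CD104low (−0.35, SE 0.10, adjusted p = 0.0243). CENPO had 1931, 1887 and 1948 in CD104high and 2201, 2448 and 2170.0 in CD104low (−0.24, SE 0.08, adjusted p = 0.0477). In each of these the groups did not overlap, but the call of CENPO ended without any 1 library (adjusted p = 0.0513 to 0.17), and 27.0% of its annotated exon bases overlap ADCY3 on the other strand. The call of CENPH ended without CD104high replicate 1 or 2 (0.0593 and 0.0547), and that of CENPX without CD104high replicate 1 or 2 or CD104low replicate 1 (0.0607, 0.0962 and 0.0564).

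CENPW, the histone-fold partner of CENP-T, and CENPM did not pass the test, at −0.39 (SE 0.13, adjusted p = 0.055) and −0.30 (SE 0.13, adjusted p = 0.114), and passed with the replicate block (adjusted p = 0.0339 and 0.0243). CENPI, which forms a subcomplex with CENP-H, had 1861, 1653 and 2042 in CD104high and 1673, 1563 and 2092 in CD104low (0.07, SE 0.12, adjusted p = 0.729). The log2 ratio of CENPH to CENPI was −1.16 ± 0.09 in CD104high and −0.63 ± 0.14 in CD104low (SD, n = 3 each, exact permutation p = 0.1, two-sided). This pair and 5 further ratios were chosen after their values had been seen, and 0.1 is the smallest p that 3 against 3 libraries allow (adjusted over 6 ratios, 0.12). CENPC, the scaffold of the network, had 0.06 (SE 0.09, adjusted p = 0.66). The 8 remaining subunits, CENPK, CENPL, CENPN, CENPP, CENPQ, CENPS, CENPT and CENPU, lay between −0.40 and −0.11, and none passed. CENPS was scarce, at 43.5 to 54.6 in CD104high and 61.0 to 66.9 in CD104low, and 64.7% of its annotated exon bases are shared with the readthrough gene CENPS-CORT.

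At the outer kinetochore, CENPE, a kinesin that moves chromosomes to the spindle equator, was lower and CENPF was not. CENPE had 6591, 7924 and 7539 in CD104high and 8825, 9828 and 8703 in CD104low (−0.31 on the log2 scale, SE 0.08, adjusted p = 0.024). The groups did not overlap, but the call ended without CD104high replicate 1 (adjusted p = 0.0911) and without CD104low replicate 2 (0.0876). CENPF, a large coiled-coil protein of the corona, had 25421, 24995 and 25683 in CD104high and 20232, 27134 and 26369 in CD104low. CD104low replicate 1 stood far below the rest, and the log2 fold change was 0.06 (SE 0.10, adjusted p = 0.728), or −0.08 without that library (adjusted p = 0.366). Of the NDC80 complex, which grips microtubule ends, 0 of 4 subunits passed, and NUF2, SPC25, NDC80 and SPC24 had −0.20, −0.20, −0.10 and −0.01.

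SKA3, a subunit of the SKA complex that stabilises microtubule attachment, had 1688, 1822 and 1754 in CD104high and 2429, 2327 and 2122 in CD104low. The groups were well apart (−0.38 on the log2 scale, SE 0.08, adjusted p = 0.0083), and the gene passed in every alternative run with the 0.05 threshold. SKA2, with the highest level per length of the complex, had 7525, 8283 and 8988 in CD104high and 10249.5, 8963 and 9480.4 in CD104low. Its groups overlapped, at −0.21 (SE 0.08, adjusted p = 0.0897), and SKA1 had −0.18 (SE 0.13, adjusted p = 0.352). The complexes that join NDC80 to the centromere, MIS12 and KNL1, had 0 of 6 genes past the test, and with the replicate block MIS12 passed as lower (adjusted p = 0.0483).

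**Figure D2:**
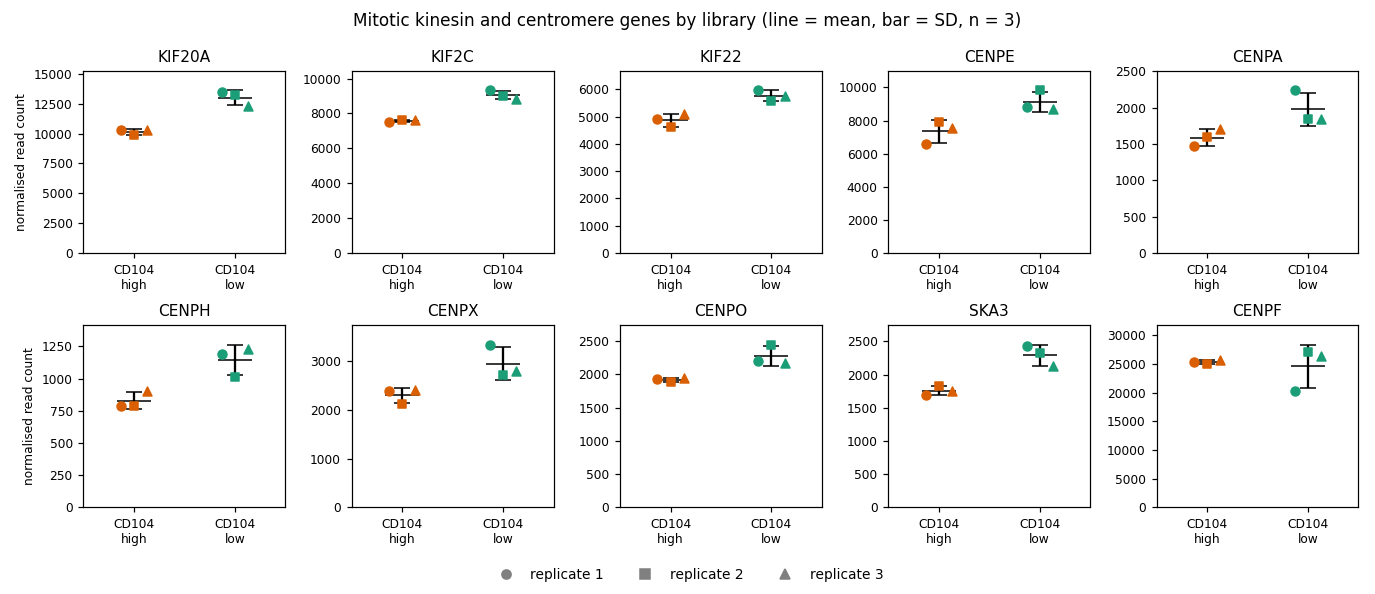
Normalised read counts of 3 mitotic kinesins and 7 centromere or kinetochore genes in CD104high (left) and CD104low (right) libraries, with replicates as symbols, the mean as a line and the SD as a bar (n = 3). The groups are apart in every panel but that of CENPF, where CD104low replicate 1 (20232) is below all others.

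The genes of proteins that work with these motors and kinetochores were lower in CD104high wherever they passed the test. Of 10 spindle checkpoint genes, which delay anaphase until chromosomes are attached, 5 were lower and 0 higher, beside 11.3% lower of all genes, a share that also stands behind the next counts. BUB1B fell by 0.32 (adjusted p = 0.00745), SPDL1 by 0.34 (adjusted p = 0.00885) and BUB1 by 0.32 (adjusted p = 0.0097), each on the log2 scale. Of the chromosomal passenger complex, 1 of 4 was lower: CDCA8, with a fall of 0.34 (adjusted p = 0.00378). BIRC5 of that complex passed only with the replicate block (adjusted p = 0.0257). Of 5 partners of mitotic kinesins, TPX2, which recruits motors to the spindle, and KNSTRN were lower, by 0.27 and 0.28 (adjusted p = 0.0123 and 0.013). The call of TPX2 ended without CD104high replicate 1 or CD104low replicate 2 (0.0514 and 0.0508), and that of KNSTRN without CD104high replicate 1 or 2 (0.0521 and 0.0532). PRC1 and NUSAP1, which share 57.6% and 62.2% of their exon bases with overlapping loci on the same strand, were listed at means of 111 and 49.4 in CD104high and 142 and 48.8 in CD104low.

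Among 14 regulators of cell cycle promoters 2 were lower and 0 higher, near the 11.3% of all genes that were lower. With the replicate block NFYA and MYBL2 passed as lower too (adjusted p = 0.0411 and 0.0483). E2F4, a repressor in resting cells, fell by 0.41 (adjusted p = 0.0028), and FOXM1, an activator of G2 and M genes, by 0.24 (adjusted p = 0.0446). The call of FOXM1 ended without each library but CD104high replicate 3 (adjusted p = 0.0664 to 0.164). Of 9 general proliferation markers 2 were lower and 0 higher, MCM3 (fall of 0.27, adjusted p = 0.0201) and MCM2 (fall of 0.28, adjusted p = 0.0392). The call of MCM3 ended without CD104high replicate 2 or 3 or CD104low replicate 2 (0.0826, 0.0553 and 0.0515), and MCM2 without CD104high replicate 1 or 2 or CD104low replicate 1 or 3 (0.0857, 0.144, 0.0998 and 0.0546). MKI67 had −0.23 (SE 0.13, adjusted p = 0.227). TOP2A, which untangles DNA before anaphase, had 0.23 (SE 0.08, adjusted p = 0.0551) and passed as higher with the replicate block (adjusted p = 0.0244), as MCM7 did as lower (adjusted p = 0.0166).

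Transport kinesins did not share a direction. KIFC2, a minus-end directed motor known from neurons, had the largest rise of the members that passed the test, with 3814, 3565 and 3537 in CD104high and 2442, 2519.7 and 2239 in CD104low. The groups were far apart (1.52-fold higher, 0.60 on the log2 scale, SE 0.07, adjusted p = 0.000785), and the gene passed in every alternative, the threshold of 0.01 included. Of its annotated exon bases 17.8% overlap FOXH1 on the other strand. KIFC2 (ENSG00000167702.12) spans 144466043 to 144474202 on chromosome 8, plus strand. KIFC3, the related minus-end motor found at cell junctions and the Golgi, went the other way, with 18259, 18775 and 18752 in CD104high and 25277, 22516 and 21138 in CD104low (−0.30, SE 0.08, adjusted p = 0.0188). The log2 ratio of KIFC2 to KIFC3 was −2.35 ± 0.08 in CD104high and −3.26 ± 0.11 in CD104low (SD, n = 3 each, exact permutation p = 0.1). KIFC2 was higher and KIFC3 lower without overlap, so this p was fixed at its smallest possible value and adds no support. The call of KIFC3 ended without CD104high replicate 1 or 2 (adjusted p = 0.0731 and 0.0571).

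Kinesin-2 is a heterotrimer of KIF3A with KIF3B or KIF3C and the adaptor KIFAP3, and builds cilia and carries vesicles. KIF3C, the alternative motor subunit, had 2162, 2023 and 2213 in CD104high and 1490.3, 1478 and 1886 in CD104low (1.33-fold higher, 0.41 on the log2 scale, SE 0.10, adjusted p = 0.0201). KIFAP3 had 1531, 1598 and 1478 in CD104high and 1019.7, 1194 and 1255 in CD104low (0.41, SE 0.10, adjusted p = 0.0141). Both were higher in each CD104high library than in any CD104low library, while the common motor subunits were not. KIF3A had 1705, 1954 and 1906 in CD104high and 1735, 1929.9 and 1949.6 in CD104low (−0.01, SE 0.09, adjusted p = 0.93), and KIF3B 7695, 7838 and 7787 in CD104high and 7904, 8419.8 and 8111 in CD104low (−0.07, SE 0.06, adjusted p = 0.459). The log2 ratio of KIF3C to KIF3B was −1.87 ± 0.08 in CD104high and −2.34 ± 0.21 in CD104low, and that of KIFAP3 to KIF3B was −2.34 ± 0.05 in CD104high and −2.82 ± 0.13 in CD104low (SD, n = 3 each, exact permutation p = 0.1 for each). As KIF3B lay lower in CD104high without overlap, both p-values were fixed at their smallest possible value and add no support. The ratio of KIF3A to KIF3B was −2.07 ± 0.09 in CD104high and −2.12 ± 0.07 in CD104low (exact permutation p = 0.4). The call of KIF3C ended without CD104high replicate 1 or 3 or CD104low replicate 1 or 2 (adjusted p = 0.0742, 0.0545, 0.0589 and 0.07), and that of KIFAP3 without CD104high replicate 1 or 2 (0.0529 and 0.0599).

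Kinesin-1 is formed by KIF5 heavy chains and KLC light chains, which bind cargo. KIF5B, its broadly expressed heavy chain, had the highest level per length of the 66 genes, at 4280.0 normalised reads per kilobase of exon in CD104high and 5052 in CD104low. Its normalised read counts were 23658, 26288 and 25516 in CD104high and 28365, 31142 and 29565 in CD104low, without overlap (−0.24, SE 0.07, adjusted p = 0.0348). That call ended without any 1 library but CD104low replicate 1 (adjusted p = 0.0599 to 0.131). KIF5C, a neuronal heavy chain, stood at 4.12 to 33.7 in CD104high and 6.18 to 23.6 in CD104low. Light chains changed in opposite directions: KLC2 fell by 0.40 (adjusted p = 0.00332), while KLC4 was 1.49-fold higher (log2 fold change 0.57, adjusted p = 0.00565). The log2 ratio of KLC4 to KLC2 was −2.05 ± 0.12 in CD104high and −3.02 ± 0.13 in CD104low (SD, n = 3 each, exact permutation p = 0.1). With KLC4 higher and KLC2 lower without overlap, this p was fixed at its smallest possible value and adds no support.

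Of 10 cargo adaptors of transport kinesins, 3 were higher and 1 lower, beside 12.1% higher and 11.3% lower of all genes. KLC4 and MAPK8IP3, a scaffold that joins kinesin-1 to cargo and to JNK kinases, were higher (MAPK8IP3 1.34-fold, adjusted p = 0.00691) and KLC2 was lower. With the replicate block KLC3 and TRAK2 passed as higher too (adjusted p = 0.0131 and 0.0477). Kinesin-3 motors carry vesicles and endosomes, and KIF13A of this family had 6427, 6429 and 6348 in CD104high and 4591, 5459 and 5335 in CD104low (0.32, SE 0.08, adjusted p = 0.0145). The call of KIF13A ended without CD104high replicate 1 or 2 (adjusted p = 0.0545 and 0.0526). Its relative KIF13B had 0.20 (SE 0.10, adjusted p = 0.167). KIF1C, another kinesin-3, was close to equal in the groups, with 19795, 19624 and 20176 in CD104high and 20031, 19424 and 20029 in CD104low (0.00, SE 0.06, adjusted p = 0.979). KIF1B and KIF16B, which carry mitochondria or synaptic vesicle precursors and endosomes, had −0.06 and −0.05, and KIF17 was scarce at 24.8 to 63.8 in CD104high and 48.4 to 70.8 in CD104low.

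**Figure D3:**
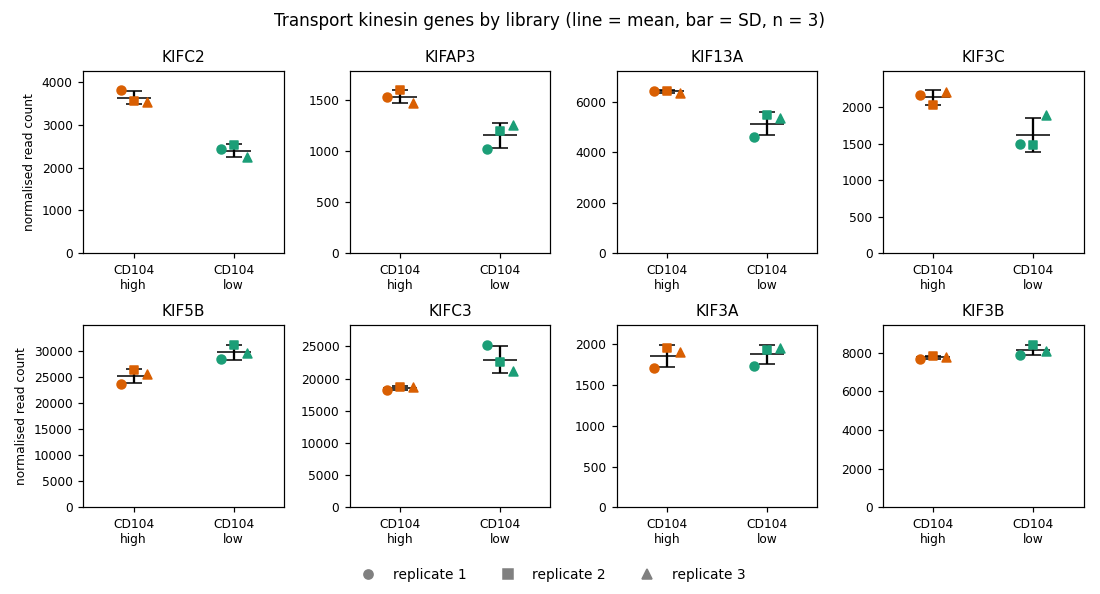
Normalised read counts of 8 transport kinesin genes in CD104high (left) and CD104low (right) libraries, with replicates as symbols, the mean as a line and the SD as a bar (n = 3). KIFC2, KIFAP3, KIF13A and KIF3C are higher in CD104high, KIF5B and KIFC3 lower, KIF3A overlaps, and KIF3B lies slightly lower without passing the test.

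For the opposing motor, cytoplasmic dynein with dynactin, 2 of 11 genes were lower and 0 higher, beside 11.3% lower and 12.1% higher of all genes. They were DYNC1LI1, a light intermediate chain that binds cargo adaptors (fall of 0.32, adjusted p = 0.0139), and DCTN3 (fall of 0.28, adjusted p = 0.0318). Without CD104high replicate 1 DYNC1LI1 missed the test (adjusted p = 0.0573), as did DCTN3 without each library but CD104low replicate 2 (0.0542 to 0.1). The heavy chain DYNC1H1 had 0.02 (SE 0.12, adjusted p = 0.934).

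Among the 9 kinesins outside both groups 2 were lower and 0 higher, beside 11.3% lower and 12.1% higher of all genes. Of the 9, 5 lay below 0, as did 48.8% of all genes. KIF7, a ciliary regulator of Hedgehog signalling, had 1269.6, 1004 and 1098 in CD104high and 1443, 1596 and 1339 in CD104low (−0.38, SE 0.11, adjusted p = 0.032). KIF2A, a depolymerase used both at spindle poles and in interphase, had 3629, 3672 and 3801 in CD104high and 4145, 4379 and 4342 in CD104low (−0.21, SE 0.06, adjusted p = 0.0382). Neither had overlapping groups, but the call of KIF7 ended without CD104high replicate 2 or 3 or CD104low replicate 1 or 2 (adjusted p = 0.0654 to 0.119), and that of KIF2A without each library but CD104low replicate 1 (0.0729 to 0.118). KIF9, KIF21A, KIF21B, KIF24, KIF25, KIF26B and KIF27 did not pass, with log2 fold changes of −0.35 to 0.57. KIF26B had 69.2, 54.6 and 119 in CD104high and 50.5, 52.2 and 51.5 in CD104low, without overlap but with a wide error (0.57, SE 0.30, adjusted p = 0.196).

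The 4 other CENP-named genes did not pass. CENPJ, a centriole assembly protein, had −0.13 (SE 0.11), CENPV −0.24 (SE 0.14), CENPBD1 0.03 (SE 0.14) and CENPBD1P1 −0.20 (SE 0.08, adjusted p = 0.0953).

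Per length, levels spanned a wide range within each role. KIF20A was the highest mitotic kinesin at 2566 normalised reads per kilobase of exon in CD104high and 3289 in CD104low, and the next were KIF11 at 2204 in CD104high and 2309 in CD104low and KIF2C at 2078 in CD104high and 2484 in CD104low. CENPB led the centromere genes at 4001 in CD104high and 4309 in CD104low. The 4 transport kinesins that were higher in CD104high lay at 309 to 818 reads per kilobase in CD104high, and the 2 that were lower, KIF5B and KIFC3, at 4280.0 and 1937. Exon lengths were taken from GENCODE release 29, so these levels depend on that annotation.

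**Figure D4:**
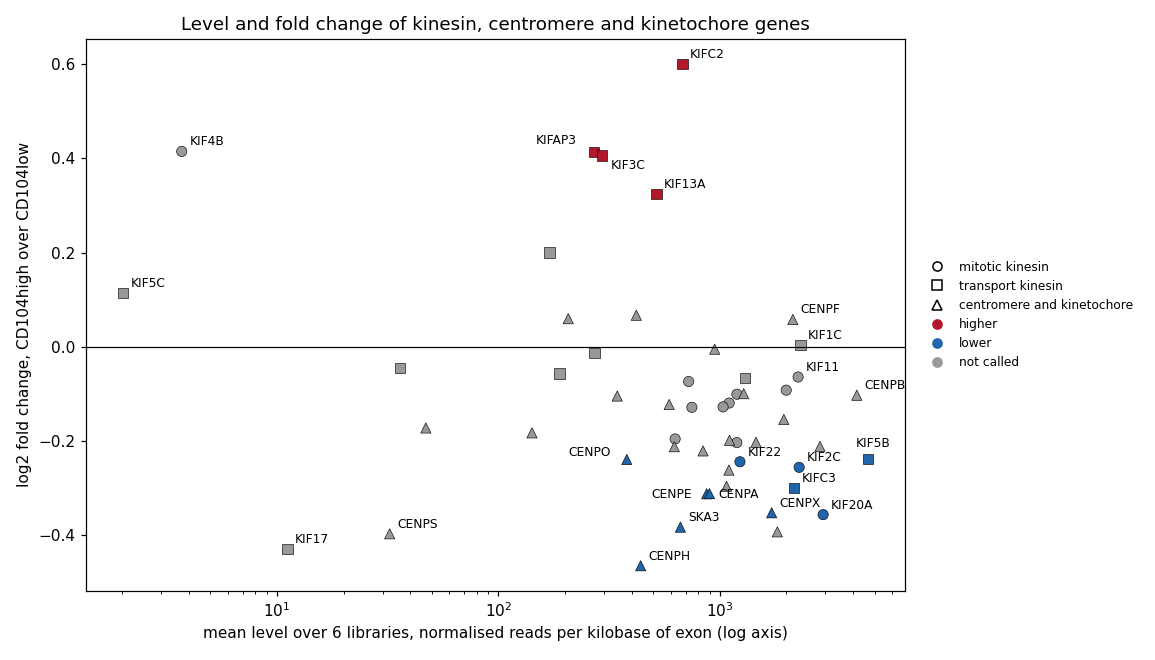
Mean level over the 6 libraries (normalised reads per kilobase of exon, log axis) against log2 fold change of CD104high over CD104low for 53 mitotic kinesin, transport kinesin, centromere and kinetochore genes; shape marks the role and colour the call. The 4 transport kinesins that rose lie at middle levels, and KIF5B, which fell, has the highest level.

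In the authors' deposited table, 17 of the 66 genes had an adjusted p under 0.05, 4 higher and 13 lower, beside 29.6% of all 13831 genes that have an adjusted p there. Of these, 15 were among the 17 called with limma. The authors' deposited table called KIF15 (adjusted p = 0.028) and CENPBD1P1 (0.0409), and did not call CENPA (0.0911) and KIF7 (0.0535).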

How the data were processed

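The 6 libraries of total RNA from sorted MDA-MB-231 cells were compared, 3 CD104high with 3 CD104low. Per the submitters' processing notes, the tools were DESeq2 1.30.1, featureCounts 1.5.0, STAR 2.4.0 and FastQC, and the build was GRCh38.p13 (hg38). Their roles, the strand setting and any filter are not stated there, so reads of overlapping genes cannot be told apart. The authors deposited 1 table with a signal per library, from the values gene read counts divided by 1 size factor per library. It also holds the authors' log2 fold change with its standard error, a test statistic (a score) and p-values, per the file headers. Whole reads were recovered (in each library, 99.99% or more of values came within 0.1 of an integer), less certainly for CD104high replicate 2, so count tests stand as alternatives. No value is 0, so genes with 0 reads in a library were not analysed here.

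The values fitted no count test, so the main test was limma-trend (version 3.58.1, in R 4.3.3) on log2(value + 1), as planned for that case, over the 14343 genes that reached 10 in 3 or more libraries. P-values were Benjamini-Hochberg adjusted over all of them, with a threshold of 0.05; adjusted p-values are limma's unless another source is named. On this scale, log2(value + 1), changes of low genes come out too small. The fit was tested on simulated data. Spans, exon lengths and overlaps come from GENCODE 29, matched without the identifier version for 66 of 66 members (18 with the same version). The labels call replicates biological without saying whether they were separate cultures, so the spread behind the p-values may be technical. Same-numbered samples deviated together (correlations across genes of 0.17, 0.32 and 0.48 for numbers 1 to 3). The replicate numbers were therefore taken to pair libraries in the replicate block and in counts within pairs, which rests on the data alone. The main test used no pairing.

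Alternatives were edgeR 4.0.16 with size factors of DESeq2 1.42.0, DESeq2, no filter, pseudocounts of 0.1 and 5, each library left out, both libraries numbered 3 left out, a replicate block, scaling to the library total, limma without trend, a threshold of 0.01 and changed list membership. Members and lists were chosen with earlier results of these data known. Named with values per library are members that passed and the 3 with the highest mean in each role, beside members that share a complex with these, and up to 3 called genes per pathway list.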

Additional observations from a re-analysis of the deposited data

How the results depend on the processing

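The numbers of genes and members that passed depended on the libraries. In 15 alternative fits 0 of 17 called members changed sign, and 3 kept their call in each of them (KIF20A, SKA3 and KIFC2). The groups of every called member were without overlap, so leaving out libraries could not turn a sign. The replicate block, no filter and limma without trend leave the estimate as it was. The count of signs therefore adds no support. With 1 library left out, 1816 to 3313 of all genes, 5 to 13 members, 2 to 3 mitotic kinesins, 1 to 5 transport kinesins and 1 to 6 centromere and kinetochore genes were called, fewest in each without CD104high replicate 1, where 5 members passed, or, for mitotic kinesins, without any of 4 libraries. The median log2 fold change then lay between −0.16 and −0.10 for mitotic kinesins, −0.05 and 0.02 for transport kinesins and −0.27 and −0.13 for centromere and kinetochore genes. Without the mean-variance trend 2173 genes, 6 members, 2 transport kinesins and 2 centromere and kinetochore genes were called, and FOXM1, MCM2, MCM3, DYNC1LI1 and DCTN3 missed the test. At a threshold of 0.01 the counts were 1436 genes, 3 members, and 1 in each of the mitotic, transport and centromere groups. Without both libraries numbered 3, 1 mitotic kinesin was called, and CENPO, KIF2A, KIF5B, TPX2 and FOXM1 missed the test (adjusted p = 0.0752, 0.126, 0.0974, 0.0649 and 0.0686). Scaled to the library total, CENPA, CENPO, KIF2A and FOXM1 missed it (0.0503, 0.0669, 0.0586 and 0.0591). With CENPE and KIF2A counted as mitotic kinesins, 5 were called. With the replicate block, in which same-numbered samples are paired, 4706 genes, 20 members, 4 mitotic kinesins, 6 transport kinesins and 8 centromere and kinetochore genes were called, and the block ended no call of a member. edgeR called 17 members and DESeq2 18.

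Signs that turned belonged to members that had not passed. Over the fits without 1 library, log2 fold changes had the ranges CENPF −0.077 to 0.14, CENPI −0.020 to 0.19, SPC24 −0.066 to 0.064, CENPBD1 −0.092 to 0.15, KIF24 −0.0024 to 0.11, KIF21B −0.10 to 0.37, KIF25 −0.51 to 0.022, KIF27 −0.042 to 0.084, KIF16B −0.16 to 0.025, KIF5C −0.43 to 0.96, KIF3A −0.067 to 0.046, KIF1C −0.012 to 0.011. Scaling to the library total gave 0.014 for SPC24 and 0.0062 for KIF3A; it shifted the median of all genes by 0.02. Without both libraries numbered 3, KIF21B had −0.12, KIF25 0.13, KIF16B 0.040 and KIF1C −0.0012. The causes were not tested. The scarce KIF4B, KIF5C, KIF21B and KIF25 had an SE of 0.36 to 0.74 on the log2 scale.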
